A study of Mus musculus with 18 samples.

Results

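The 33 genes described here encode the enzymes and transporters of glucose uptake, glycolysis, lactate handling, entry of pyruvate into mitochondria and the pentose phosphate pathway, with the hypoxia factor Hif1a. They were taken by symbol from the table of read counts. All 33 were found among its 23337 genes, of which 15582 had a count in at least 1 library, and all 33 were among the 11118 genes with enough counts to test. The samples were invariant natural killer T (iNKT) cells, T cells that recognise glycolipids on CD1d, sorted from the thymus as NKT1, NKT2 and NKT17, the subsets marked by the transcription factors T-bet, high PLZF and RORγt. The mice were WT or SKG on a BALB/c background. SKG is a strain whose Zap70 carries a spontaneous point mutation that weakens signalling from the T cell receptor, in every tissue and throughout life. The authors crossed SKG mice with BALB/cJ, bred the WT and the SKG F2 offspring apart, and compared their F3 progeny. All 6 groups (WT NKT1, WT NKT2, WT NKT17, SKG NKT1, SKG NKT2, SKG NKT17) held 3 libraries, 18 in all, and no group was given a treatment. All sorted cells bound CD1d tetramer loaded with α-galactosylceramide. The NKT1 gate took ICOS low CD49a+ cells, the NKT2 gate CD49a- Sdc-1- cells high in ICOS, CD4 and TCRβ, and the NKT17 gate CD49a- ICOS high Sdc-1+ cells. The age of the mice and the number pooled per library are not given in the sources used here.

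Glycolysis splits glucose into pyruvate, with a net gain of ATP that needs no oxygen. Pyruvate is then reduced to lactate and exported, or enters the mitochondria through pyruvate dehydrogenase, and the pentose phosphate pathway drains glucose 6-phosphate to make NADPH and ribose for nucleotides. Activated and dividing T cells are known to raise glycolysis, and HIF-1, the dimer of the Hif1a product with its partner, switches on many glycolytic genes.

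Libraries held 4391029 to 8895917 counted reads, and 0.581 to 0.903% of the counts of a library fell on the members. The marker lists of the subsets went with the labels in WT: against NKT2, NKT1 cells had higher levels of 6 of 6 NKT1 genes and NKT17 cells of 6 of 6 NKT17 genes. NKT2 cells exceeded NKT1 for 5 of 6 NKT2 genes but exceeded NKT17 for 2 of 6 of them only, so that this list separated NKT2 from NKT17 poorly. The summed level of 15 proliferation genes lay between 1536 and 1806 CPM (read counts scaled to library size) for WT NKT2, between 751 and 1007 for WT NKT1 and between 782 and 1002 for WT NKT17. In SKG it lay between 906 and 1121 for NKT2, between 636 and 816 for NKT1 and between 424 and 531 for NKT17. These genes thus moved with the groups, and their part in the differences given here was not tested. In a sorted bulk sample, fewer cells that use a gene and less of its RNA per cell cannot be told apart.

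Levels are CPM after TMM scaling, with the SD over n = 3 libraries. A fold change is that of the edgeR quasi-likelihood fit over all 18 libraries, given as log2 with its standard error. A gene was called where its Benjamini-Hochberg adjusted p over all tested genes was under 0.1 and its fold change at least 1.5, the thresholds of the study. The short reads limit some members: 92.9% of the 50-base windows of Pgk1 also occur elsewhere in the mouse genome, 91.9% of those of Pgam1, 85.6% of Gapdh and 72.2% of Eno1. The share was 41.4% for Pkm2, 33.6% for Ldhb, 31.4% for Gpi1, 29.1% for Ldha and 23.6% for Tpi1. Counts of these genes are uncertain, because such reads can be lost or be placed on a pseudogene copy. The same holds to a lesser degree for Aldoa at 14.8%, Taldo1 at 13.1% and G6pdx at 7.65%, and the other members stood at 1.69% or less. Exons overlap those of a gene on the opposite strand over 741 bases for Gpi1, 603 for Pdha1 and 418 for G6pdx. For Hk1, Slc2a1 and Tpi1 the overlap is 157, 105 and 34 bases. Those of Pfkp, Hif1a and Slc16a3 are given below.

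Summed over the 33 members, NKT2 cells held the most of these transcripts in both genotypes. The libraries summed to between 8593 and 8820 CPM for WT NKT2, between 6924 and 8104 for WT NKT17 and between 6237 and 7073 for WT NKT1. The SKG libraries summed to between 7120 and 7278 CPM for NKT2, between 6253 and 7056 for NKT17 and between 6037 and 6635 for NKT1. The libraries of WT NKT2 did not overlap those of any other group, whereas NKT1 and NKT17 overlapped in both genotypes. Abundant members weigh most in these sums, such as Ldha at 1846 and Pkm2 at 1219 CPM in WT NKT2. In SKG the members' median log2 fold change was -0.09 for NKT1 against NKT2, and -0.02 for all tested genes. For SKG NKT17 against NKT2 it was -0.08, and 0.01 for all tested genes. Per kb of exon, Ldha stood at 619 ± 21.02, Pkm2 at 510 ± 12.1, Pgam1 at 334 ± 4.26 and Aldoa at 291 ± 7.88 CPM in WT NKT2.

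**Figure D1:**
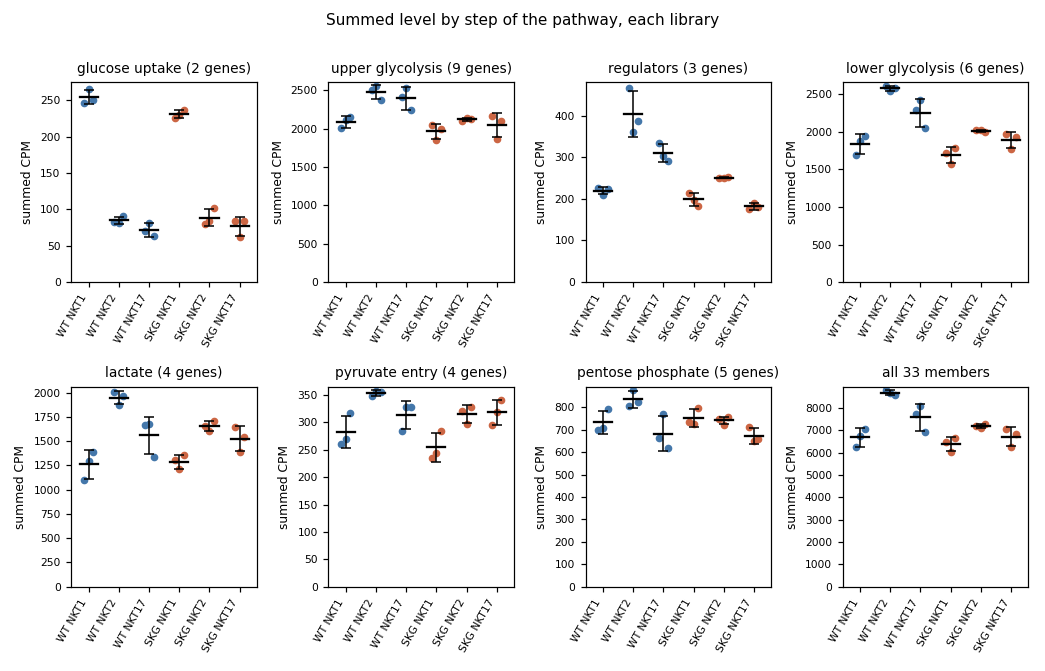
Summed level of the members by role, in CPM on the vertical axis, for each of the 18 libraries (points, with the mean and SD of 3 libraries as bars) in the 6 groups along the horizontal axis. Glucose uptake was highest in NKT1 of both genotypes (WT 254 ± 9.67, SKG 231 ± 5.40 CPM), while lower glycolysis was highest in WT NKT2 (2582 ± 31.8 CPM).

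The first question was whether the subsets differ in these genes in normal mice. In WT, NKT1 cells had 3 members called above NKT2 (9.09% of them, against 13.7% of all tested genes called above) and 8 below (24.2%, against 13.7%). The members' median log2 fold change was -0.30, while that of all tested genes was 0. With upper-quartile scaling the split was 2 above and 13 below, and that of all genes went from 1526 above and 1528 below to 1283 and 1852. The 3 higher members were the glucose transporters Slc2a1 and Slc2a3 and the enolase Eno1. The 8 lower members were Pfkm, Pfkfb3, Pgk1, Ldha, Slc16a1, Pdk1, Pdk3 and Hif1a. A further 7, namely Gpi1, Pfkp, Tpi1, Gapdh, Pgam1, Pkm2 and Tkt, passed the adjusted p below the fold minimum, all lower in NKT1. Of the 15 proliferation genes, 12 were likewise called below NKT2.

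Between WT NKT1 and NKT17, 7 members were called higher in NKT1 (21.2%, against 11.2% of all genes) and 4 lower (12.1%, against 13.5%), with a median of -0.10 for the members and -0.01 for all genes. Higher in NKT1 were Slc2a1, Slc2a3, Pfkfb4, Tpi1, Eno1, Eno3 and Rpia, and higher in NKT17 were Pfkm, Pfkp, Ldhb and Slc16a3. With upper-quartile scaling the split turned to 5 above and 6 below NKT17. That of all genes went from 1243 above and 1505 below to 1152 and 1615. The count of 11 fell to 6 without WT NKT1 replicate 3 and to 6 without WT NKT17 replicate 1. Between WT NKT17 and NKT2, 3 members were called higher in NKT17 (9.09%, against 11% of all genes), namely Pfkp, Ldhb and Slc16a3. The 5 called lower (15.2%, against 8.97%) were Tpi1, Eno3, Slc16a1, Pdk1 and Tkt, and the median was -0.32 for the members and 0.01 for all genes. Of the 15 proliferation genes, NKT1 had 4 called below NKT17, and NKT17 had 13 called below NKT2.

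In SKG cells, 1 member, Slc2a3, was called above NKT2 in NKT1 (3.03%, against 10% of all genes). The 4 called lower (12.1%, against 8.63%) were Ldhb, Slc16a1, Pdk1 and Pdk3. The count of 5 fell to 3 without SKG NKT1 replicate 1 and to 3 without SKG NKT2 replicate 1. Between SKG NKT1 and NKT17, 7 were called higher in NKT1 (21.2%, against 10.2%), namely Slc2a1, Slc2a3, Pfkfb4, Tpi1, Eno1, Eno3 and Slc16a1. The 6 called lower (18.2%, against 12.5%) were Hk2, Pfkp, Ldhb, Slc16a3, Pdk2 and Pdk3. Between SKG NKT17 and NKT2, 4 were called higher (12.1%, against 10.5%), namely Hk2, Ldhb, Slc16a3 and Pdk2, and 4 lower (12.1%, against 8.27%), namely Pfkfb4, Tpi1, Slc16a1 and Pdk1. Of the 15 proliferation genes in SKG, NKT1 had 8 called below NKT2 and 6 above NKT17, and NKT17 had 12 below NKT2. The subset comparisons of a genotype share libraries, so their calls are not independent of each other.

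The second question was how SKG cells differ from WT cells of the same subset. Markers of the subsets moved with genotype too: 3 of 6 NKT2 genes were called lower in SKG NKT2 (summed level 1545 to 1893 CPM, against 2501 to 2599 in WT NKT2), and in SKG NKT17, 3 of 6 NKT17 genes were called lower and 1 higher (2161 to 2206 CPM, against 2182 to 2316). In SKG NKT1, 0 of 6 NKT1 genes were called (3594 to 4043 CPM, against 4383 to 4968). The part of these shifts in the members' differences was not tested. In NKT1, 0 members were called higher in SKG (1.46% of all genes were) and 1 lower (3.03%, against 1.82%), the pyruvate dehydrogenase kinase Pdk2. With upper-quartile scaling 1 was called higher and 1 lower, and the split of all genes went from 162 higher and 202 lower to 171 and 178. The count of 1 was 0 without WT NKT1 replicate 2, SKG NKT1 replicate 2 or SKG NKT1 replicate 3, and 2 without WT NKT1 replicate 1 or SKG NKT1 replicate 1. In NKT2, 1 member, Eno1, was called higher in SKG (3.03%, against 3.9%) and 4 lower (12.1%, against 4.05%), namely Hif1a, Pdk3, Tpi1 and Pfkfb3. A further 7 passed the adjusted p below the fold minimum, all lower in SKG NKT2: Gpi1, Pfkl, Gapdh, Pgk1, Pgam1, Pkm2 and Tkt, with log2 fold changes from -0.57 to -0.28. The members' median in NKT2 was -0.28 and that of all genes 0.00, and the count of 5 fell to 3 without WT NKT2 replicate 2. In NKT17, 1 member, Hk2, was called higher in SKG (3.03%, against 3.83%) and 2 lower (6.06%, against 4.54%), Pfkp and Hif1a. The median there was -0.15 for the members and 0.00 for all genes, and the count of 3 rose to 5 without WT NKT17 replicate 2. Of the 15 proliferation genes, 1 was called lower in SKG NKT1, 4 in SKG NKT2 and 11 in SKG NKT17.

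The difference of the SKG effect between subsets was tested as an interaction. For NKT2 against NKT1, 2 members were called, Pfkfb3 and Tpi1 (6.06%, against 3.87% of all genes), and for NKT17 against NKT1, 1 was called, Slc16a1 (3.03%, against 4.17%). For NKT17 against NKT2, 7 members had an unadjusted p under 0.05 by edgeR, a share that was not counted over all genes. There edgeR called 0 members (2.19% of all genes were called), and DESeq2 called 1, Hk2 (171 genes higher and 172 lower of 15582). Single libraries moved these counts. The first fell to 0 without WT NKT2 replicate 1 or SKG NKT1 replicate 1 and to 1 without any of the others except SKG NKT2 replicate 1 and SKG NKT1 replicate 3. The next fell to 0 without SKG NKT17 replicate 3, rose to 4 without SKG NKT1 replicate 3, and rose to 2 without SKG NKT17 replicate 1 or 2, WT NKT1 replicate 3 or WT NKT17 replicate 3. The last was 1 without WT NKT17 replicate 3.

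**Figure D2:**
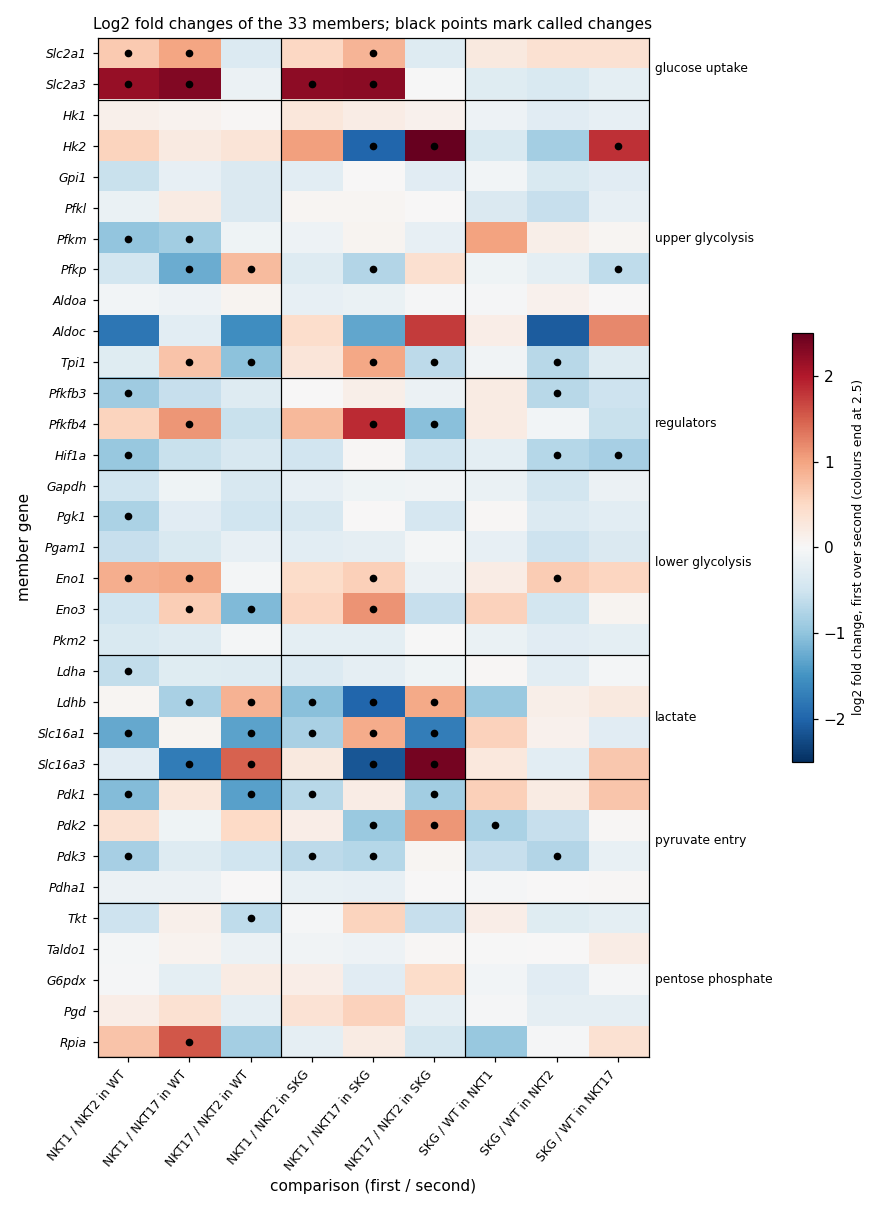
Heat map of the edgeR log2 fold change of the 33 members (lines, ordered by role) in the 9 comparisons between groups (columns), with colours that end at 2.5 in either direction and a black point on each called value. Slc2a3 stands out as higher in NKT1 in the 4 comparisons of NKT1 with another subset, from 2.17 to 2.32, and Slc16a3 as higher in NKT17 than in the other subsets, from 1.47 to 2.40.

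Glucose enters T cells through GLUT1, the Slc2a1 product, and GLUT3, the Slc2a3 product, which has the higher affinity for glucose. Slc2a3 (NCBIM37 chr6:122677827-122751658, minus strand) stood at 174, 209 and 170 CPM in WT NKT1, at 40.2, 40.3 and 42.1 in WT NKT2 and at 37.3, 40.5 and 32.8 in WT NKT17. The NKT1 libraries lay far above all others, and NKT2 and NKT17 overlapped. The log2 fold change was 2.17 ± 0.17 over NKT2 (edgeR adjusted p = 9.00e-10) and 2.32 ± 0.17 over NKT17 (edgeR adjusted p = 2.32e-10), the largest of the 33 members in both comparisons. In SKG the levels were 145, 151 and 150 CPM in NKT1, 23.98, 35.2 and 34.98 in NKT2 and 34.4, 22.5 and 36.6 in NKT17, which gave 2.24 ± 0.17 over NKT2 and 2.25 ± 0.17 over NKT17. Every SKG library of NKT1 and of NKT2 was below its WT counterparts, but neither difference passed (-0.31 ± 0.16 in NKT1, edgeR adjusted p = 0.403, and -0.38 ± 0.17 in NKT2, edgeR adjusted p = 0.203).

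Slc2a1 (chr4:118781316-118809935, plus strand) followed the same order with smaller steps. It stood at 72.9, 55.7 and 80.5 CPM in WT NKT1, at 42.9, 40.7 and 48.4 in WT NKT2 and at 33.4, 41.4 and 30.3 in WT NKT17. NKT1 again did not overlap the others, with 0.66 ± 0.17 over NKT2 (edgeR adjusted p = 0.00379) and 1.00 ± 0.17 over NKT17 (edgeR adjusted p = 6.95e-05). The call against NKT2 was lost without WT NKT1 replicate 3, where the log2 fold change was 0.53, and with upper-quartile scaling, where it was 0.56. In SKG NKT1 the level was 82.5 ± 3.67 CPM, 0.52 ± 0.17 above SKG NKT2, short of the fold minimum, and 0.85 ± 0.17 above SKG NKT17. On the scale of CPM per kb of exon, Slc2a3 made up 51.2 ± 7.54% of the pair in WT NKT1, 26.9 ± 1.28% in WT NKT2 and 29.4 ± 1.42% in WT NKT17. SKG cells gave shares of 41.6 ± 1.10% for NKT1, 17.8 ± 3.75% for NKT2 and 20.99 ± 2.55% for NKT17.

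**Figure D3:**
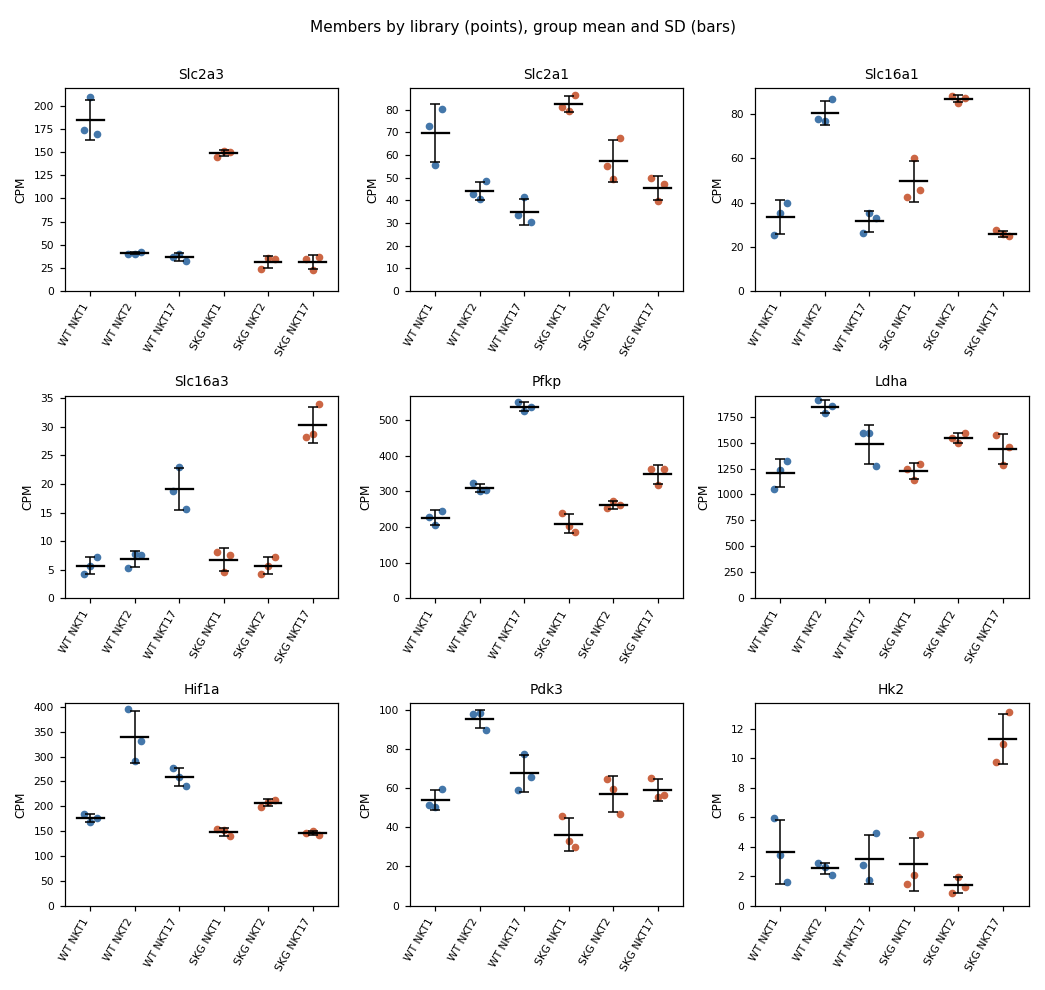
Levels of 9 members in CPM (vertical axes) in each of the 18 libraries (points, with mean and SD of 3 libraries) of the 6 groups (horizontal axes). Slc2a3 and Slc2a1 are highest in NKT1, Slc16a1, Ldha and Hif1a in WT or SKG NKT2, Pfkp and Slc16a3 in NKT17, and Hk2 in SKG NKT17.

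Hexokinases trap glucose in the cell as glucose 6-phosphate. Hk1, the general form, showed no called difference, with group means from 156 to 208 CPM. Hk2 (chr6:82675019-82724448, minus strand), the inducible form that binds mitochondria, was low in 5 groups and higher in SKG NKT17. It stood at 9.76, 11.0 and 13.1 CPM in SKG NKT17 and at 2.73, 1.74 and 4.93 in WT NKT17, without overlap. These levels rest on 63 to 70 and on 10 to 36 reads per library. The log2 fold change was 1.82 ± 0.54 (edgeR adjusted p = 0.0351). This call was lost without WT NKT17 replicate 1 (adjusted p = 0.125 by edgeR), WT NKT17 replicate 2 (0.124) or SKG NKT17 replicate 3 (0.128). Within SKG, Hk2 was 3.01 ± 0.59 above NKT2 (edgeR adjusted p = 0.000496) and 1.99 ± 0.55 above NKT1 (edgeR adjusted p = 0.00826) on the log2 scale. In SKG NKT2 it stood at 0.880 to 1.96 CPM, below the 2.10 to 2.86 of WT NKT2, a difference of -0.86 ± 0.61 short of the threshold (edgeR adjusted p = 0.462). Even in SKG NKT17, Hk2 made up 8.74 ± 0.824% of the hexokinase pair per kb, against 2.20 ± 0.909% in WT NKT17.

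Markers of double-positive thymocytes and of B cells also stood highest in SKG NKT17. The summed level of 6 genes of double-positive thymocytes was 14.3 to 47.4 CPM there, 5.27 to 12.5 in WT NKT17 and 0.928 to 13.8 in the other groups, with Rag1, Rag2 and Dntt at 0 counts in both NKT17 groups. The summed level of 5 B cell genes was 24.7 to 40.7 CPM in SKG NKT17, 7.81 to 11.1 in WT NKT17 and 0.323 to 5.94 elsewhere, nearly all of it Cd79b, with Pax5 at 0 counts in every library. The 5 myeloid genes were highest in WT NKT2, at up to 14.2 CPM, and the 5 red cell genes in SKG NKT2, at up to 1.44 CPM. What part these transcripts have in the level of Hk2 was not tested.

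Gpi1, the isomerase of the next step, was lower in WT NKT1 than in WT NKT2 (412 ± 23.2 against 608 ± 34.2 CPM, log2 fold change -0.56 ± 0.09, edgeR adjusted p = 6.60e-05), short of the fold minimum. Phosphofructokinase, the main control point of glycolysis, is encoded by Pfkl, Pfkm and Pfkp. Pfkp (chr13:6579014-6648023, minus strand), the platelet form, stood at 550, 525 and 537 CPM in WT NKT17, at 323, 300 and 304 in WT NKT2 and at 228, 205 and 246 in WT NKT1. The 3 groups did not overlap. NKT17 was above NKT1 by 1.25 ± 0.10 (edgeR adjusted p = 1.60e-09) and above NKT2 by 0.80 ± 0.10 (edgeR adjusted p = 2.55e-06), and NKT1 was below NKT2 by 0.45 ± 0.10, short of the fold minimum.

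In SKG NKT17, Pfkp stood at 361, 316 and 364 CPM, all below the WT NKT17 libraries. The log2 fold change was -0.63 ± 0.10 (edgeR adjusted p = 0.000198), and without SKG NKT17 replicate 2 it was -0.57, short of the fold minimum. The SKG effect on Pfkp was -0.11 ± 0.10 in NKT1 and -0.24 ± 0.10 in NKT2, neither past the test. The interaction of NKT17 against NKT1 was -0.52 ± 0.14 (edgeR adjusted p = 0.0571), under the fold minimum. Within SKG, NKT17 still stood above NKT1 by 0.73 ± 0.10 (edgeR adjusted p = 6.45e-06). Per kb of exon, Pfkp made up 58.3 ± 1.66% of the 3 phosphofructokinase genes in WT NKT17 and 50.5 ± 1.83% in SKG NKT17, against 35.3 to 43.3% in the means of the other groups. Exons of Pfkp overlap those of Pitrm1 on the opposite strand over 372 bases, and the sources used here do not say whether reads were counted by strand.

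The liver form Pfkl stood at 210 ± 18.6 CPM in WT NKT2 and 141 ± 11.1 in SKG NKT2, a log2 fold change of -0.57 ± 0.12 (edgeR adjusted p = 0.00374) short of the fold minimum. The muscle form Pfkm was rare, at 6.24 ± 2.45 CPM in WT NKT1 and 12.4 ± 4.90 in WT NKT2. Its calls in WT NKT1 rested on single libraries: against NKT2 the edgeR adjusted p went from 0.0555 to 0.182 without WT NKT1 replicate 3 and to 0.276 without WT NKT2 replicate 3. Against NKT17 it went from 0.0997 to 0.301 without WT NKT1 replicate 3 and to 0.334 without WT NKT17 replicate 3, and the call was also lost without WT NKT1 replicate 2 (0.123) or WT NKT17 replicate 1 (0.142).

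Aldolase A (Aldoa), which splits the sugar into 2 trioses, was level across groups, with means from 751 to 865 CPM and no called difference. Aldoc was near the floor, with means from 0.774 to 3.18 CPM. Tpi1 (chr6:124760604-124764314, minus strand), which interconverts the trioses, was lowest in NKT17. It stood at 386, 344 and 300 CPM in WT NKT2, at 257, 276 and 303 in WT NKT1 and at 182, 176 and 150 in WT NKT17. NKT17 lay below both other subsets, by 1.02 ± 0.12 against NKT2 (edgeR adjusted p = 5.17e-07) and by 0.72 ± 0.12 against NKT1 (edgeR adjusted p = 3.59e-05). In SKG NKT2 it stood at 207, 211 and 221 CPM, below every WT NKT2 library, with a log2 fold change of -0.69 ± 0.12 (edgeR adjusted p = 0.000330). SKG NKT1 stood at 264 ± 21.6 CPM, with no called difference from WT, and the interaction of NKT2 against NKT1 was -0.61 ± 0.16 (edgeR adjusted p = 0.0447). That call was lost without WT NKT1 replicate 1, WT NKT2 replicate 1 or SKG NKT1 replicate 1, at log2 values of -0.56, -0.54 and -0.56. In SKG, NKT17 was 0.65 ± 0.12 below NKT2, and 0.58 below it without SKG NKT17 replicate 2, short of the fold minimum.

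Of the regulators, Hif1a (chr12:75002362-75048517, plus strand) gave the clearest genotype difference. It stood at 396, 292 and 331 CPM in WT NKT2, at 278, 259 and 240 in WT NKT17 and at 185, 168 and 176 in WT NKT1. In SKG it stood at 199, 210 and 213 CPM in NKT2, at 145, 151 and 142 in NKT17 and at 154, 153 and 140 in NKT1. Every SKG library lay below every WT library of its subset. The SKG effect was -0.71 ± 0.11 for NKT2 cells (edgeR adjusted p = 8.64e-05), -0.83 ± 0.11 for NKT17 (edgeR adjusted p = 1.45e-05) and -0.25 ± 0.11 for NKT1 (edgeR adjusted p = 0.287). The interaction of NKT17 against NKT1 was -0.58 ± 0.15 (edgeR adjusted p = 0.0394), just short of the fold minimum, and that of NKT2 against NKT1 was -0.46 ± 0.15 (edgeR adjusted p = 0.117).

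The standing of Hif1a among the subsets was as follows. In WT, NKT1 was 0.94 ± 0.11 below NKT2 (edgeR adjusted p = 3.10e-07) and 0.55 ± 0.11 below NKT17 (edgeR adjusted p = 0.000277). In SKG, NKT1 and NKT17 overlapped, with a difference of 0.02 ± 0.11 (edgeR adjusted p = 0.906), and both stood below NKT2 by about the same amount (-0.48 ± 0.11 and -0.51 ± 0.11). Exons of Hif1a overlap those of Gm15283 on the opposite strand over 330 bases.

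Pfkfb3 and Pfkfb4 make and degrade fructose 2,6-bisphosphate, the activator of phosphofructokinase. Pfkfb3 (chr2:11393057-11423728, minus strand) stood at 61.1, 59.5 and 50.2 CPM in WT NKT2 and at 33.8, 28.6 and 29.4 in WT NKT1, a log2 fold change of -0.89 ± 0.20 for NKT1 (edgeR adjusted p = 0.00120). In SKG these subsets were level, at 35.4 ± 7.84 CPM in NKT2 and 35.6 ± 7.70 in NKT1. SKG NKT2 was below WT NKT2 by 0.69 ± 0.20 (edgeR adjusted p = 0.0319) and the interaction against NKT1 was -0.90 ± 0.28 (edgeR adjusted p = 0.0968). The first of these calls was lost without WT NKT2 replicate 2 (0.102), SKG NKT2 replicate 2 (0.135) or SKG NKT2 replicate 3 (0.155), in adjusted p by edgeR, and with the replicate block, a fit with the tag in the sample titles as a further term (log2 fold change -0.55, adjusted p = 0.107 by edgeR). The interaction was lost without any library of WT NKT2, WT NKT1 replicate 2 or 3, SKG NKT1 replicate 1 or 2, or SKG NKT2 replicate 2 or 3, at adjusted p from 0.102 to 0.252. Pfkfb4 was rarer and was called higher in NKT1 than in NKT17, at 14.4 ± 4.25 against 3.97 ± 0.652 CPM in SKG (1.86 ± 0.39, edgeR adjusted p = 0.000744). In WT it stood at 12.6 ± 5.30 against 5.77 ± 1.44 CPM (1.11 ± 0.37, edgeR adjusted p = 0.0286), a call lost without WT NKT1 replicate 3 (0.159) or WT NKT17 replicate 1 (0.117). Its call in SKG NKT17 below NKT2 (-1.05 ± 0.39, edgeR adjusted p = 0.0592) was lost without SKG NKT17 replicate 1 or 3 or SKG NKT2 replicate 2 or 3, at adjusted p from 0.122 to 0.191.

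HIF-1 binds DNA at the core ACGTG, which overlaps the E-box CACGTG bound by Myc and related factors. In the 250 bases before the gene start (RefSeq, GRCm38.p6; 32 of 33 members matched, Pkm2 under its symbol Pkm), ACGTG was found on either strand in 14 members, or 43.8%, against 18.5% of 27025 genes. CACGTG was found in 6 members, or 18.8%, against 6.86% of all genes. A gene with several start sites was counted where any of its windows held the motif. The 27025 genes are all those with a RefSeq window, not only the 11118 tested here. No share was counted over the tested genes alone. Other members that were called held no ACGTG in their windows, among them Pfkp, Pfkfb4, Tpi1, Eno1, Ldhb, Pdk1 and Tkt. The matches are letters in a window, not sites of binding, and no binding was measured. The windows of 4 members are shown, picked among those that were called in the comparisons and held ACGTG, each read along its gene, with capitals for ACGTG or its reverse complement CACGT: Hif1a at chr12:73907617-73907866 (plus), Hk2 at chr6:82774455-82774704 (minus), Slc16a1 at chr3:104638414-104638663 (plus) and Slc16a3 at chr11:120948817-120949066 (plus).
Hif1a: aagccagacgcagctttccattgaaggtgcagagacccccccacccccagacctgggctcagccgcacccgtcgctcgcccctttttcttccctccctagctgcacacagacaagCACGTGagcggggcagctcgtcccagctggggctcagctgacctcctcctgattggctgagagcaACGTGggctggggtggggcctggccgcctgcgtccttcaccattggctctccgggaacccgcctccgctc
Hk2: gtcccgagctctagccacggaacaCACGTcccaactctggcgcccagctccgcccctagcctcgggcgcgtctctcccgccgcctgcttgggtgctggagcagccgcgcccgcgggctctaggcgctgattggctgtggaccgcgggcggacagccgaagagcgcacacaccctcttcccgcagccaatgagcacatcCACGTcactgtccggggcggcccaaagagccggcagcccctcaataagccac
Slc16a1: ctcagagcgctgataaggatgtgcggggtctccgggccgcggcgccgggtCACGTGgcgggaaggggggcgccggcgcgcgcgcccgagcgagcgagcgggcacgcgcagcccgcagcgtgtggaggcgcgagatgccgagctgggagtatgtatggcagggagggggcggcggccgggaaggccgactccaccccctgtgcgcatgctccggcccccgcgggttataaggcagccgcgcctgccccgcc
Slc16a3: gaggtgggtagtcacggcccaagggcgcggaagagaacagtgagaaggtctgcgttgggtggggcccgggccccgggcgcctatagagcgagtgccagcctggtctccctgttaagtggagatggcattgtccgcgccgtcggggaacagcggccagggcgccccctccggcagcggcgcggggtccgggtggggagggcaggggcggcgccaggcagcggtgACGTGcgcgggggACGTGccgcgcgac

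In lower glycolysis, which yields ATP and pyruvate, NKT2 of WT stood highest for most genes. Pgk1, phosphoglycerate kinase, stood at 476, 460 and 484 CPM in WT NKT2 and at 242, 285 and 299 in WT NKT1, a log2 fold change of -0.78 ± 0.11 for NKT1 (edgeR adjusted p = 4.41e-06). Gapdh (-0.50 ± 0.12), Pgam1 (-0.58 ± 0.10) and pyruvate kinase Pkm2 (-0.38 ± 0.10) moved the same way past the adjusted p but below the fold minimum. In SKG the same contrast was smaller for each, from -0.41 ± 0.11 for Pgk1 to -0.20 ± 0.12 for Gapdh, which did not pass the test. In NKT2, SKG was below WT for Pgam1 (426 ± 36.1 against 611 ± 7.79 CPM, -0.52 ± 0.10, edgeR adjusted p = 0.000854), with no overlap between libraries. The interactions of NKT2 against NKT1 for these 4 genes were not called (edgeR adjusted p from 0.235 to 0.783).

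Of the enolases, Eno1 went a different way, while Eno3 in WT stood highest in NKT2, as most of these genes did. Eno1 (chr4:149610830-149622988, plus strand) stood at 30.04, 36.3 and 35.9 CPM in WT NKT1, at 20.4, 16.9 and 17.1 in WT NKT2 and at 15.4, 19.98 and 17.3 in WT NKT17. NKT1 was 0.91 ± 0.19 above NKT2 (edgeR adjusted p = 0.000692) and 0.95 ± 0.19 above NKT17 (edgeR adjusted p = 0.000413). In SKG NKT2, Eno1 stood at 24.4, 30.9 and 29.4 CPM, above every WT NKT2 library, with 0.64 ± 0.19 (edgeR adjusted p = 0.0396). That call was lost without WT NKT2 replicate 2 (0.140) or 3 (0.132), or SKG NKT2 replicate 2 (0.146) or 3 (0.121), in adjusted p by edgeR, and with the replicate block (0.59, 0.102). The call of NKT1 over NKT17 in SKG (0.60 ± 0.19) was lost without SKG NKT17 replicate 2, at 0.49, and with upper-quartile scaling, at 0.57. Eno3, the muscle enolase, was lowest in NKT17 (11.7 ± 0.811 CPM in WT and 12.2 ± 4.11 in SKG), and in WT it was called against NKT2 (-1.10 ± 0.24, edgeR adjusted p = 0.00153). Its call of WT NKT1 over NKT17 (0.61 ± 0.24, edgeR adjusted p = 0.0660) did not hold when WT NKT1 replicate 2 or 3 or WT NKT17 replicate 1 or 2 was left out, at adjusted p from 0.101 to 0.170. It stood at 26.6 ± 3.92 CPM in SKG NKT1 and 17.8 ± 1.10 in WT NKT1, and at 18.2 ± 2.17 in SKG NKT2 and 25.1 ± 3.41 in WT NKT2. Both pairs did not overlap, in opposite directions, but neither passed the test (edgeR adjusted p = 0.257 and 0.278).

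Lactate dehydrogenase A (Ldha), which reduces pyruvate to lactate, had the highest mean CPM of the members. This rank is that of counted reads only. More windows of Pgk1, Pgam1, Gapdh and Eno1 than of Ldha occur elsewhere in the genome, so their order by abundance is uncertain. Ldha stood at 1906, 1781 and 1851 CPM in WT NKT2, at 1587, 1587 and 1270 in WT NKT17 and at 1054, 1240 and 1323 in WT NKT1. NKT1 was 0.62 ± 0.11 below NKT2 (edgeR adjusted p = 8.39e-05), and 0.54 below it without WT NKT1 replicate 1, short of the fold minimum. In SKG NKT2 it stood at 1546, 1496 and 1589 CPM, below every WT NKT2 library, but the difference of -0.26 ± 0.11 missed the threshold (edgeR adjusted p = 0.149). Ldhb, the form that favours lactate oxidation, stood at 6.50, 8.95 and 9.18 CPM in SKG NKT1 and at 19.95, 47.9 and 30.4 in SKG NKT17, a log2 fold change of -1.99 ± 0.36 for NKT1 (edgeR adjusted p = 0.000182). Its 4 other calls rested on single libraries. In WT, NKT17 over NKT1 was lost without any library of NKT1 or NKT17 replicate 1 or 2 (edgeR adjusted p up to 0.277), and NKT17 over NKT2 without replicate 1 or 2 of either (up to 0.342). In SKG, NKT1 below NKT2 was lost without NKT1 replicate 1 or NKT2 replicate 3 (up to 0.190), and NKT17 over NKT2 without NKT2 replicate 1 or 2 or NKT17 replicate 2 (up to 0.317). Ldhb made up 1.26 to 4.26% of the pair per kb in the group means, so that Ldha led in every group.

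The lactate transporters MCT1 (Slc16a1) and MCT4 (Slc16a3) parted the subsets. Slc16a1 (chr3:104442591-104462385, plus strand), which carries lactate in either direction, stood at 77.8, 76.6 and 86.7 CPM in WT NKT2, at 25.2, 35.3 and 39.8 in WT NKT1 and at 26.3, 35.3 and 33.2 in WT NKT17. NKT2 was above NKT1 by 1.27 ± 0.17 (edgeR adjusted p = 4.74e-06) and above NKT17 by 1.35 ± 0.17 (edgeR adjusted p = 3.18e-06), while NKT1 and NKT17 overlapped. In SKG, NKT1 stood at 42.7, 59.9 and 45.9 CPM and NKT17 at 27.5, 25.8 and 24.8, now apart by 0.93 ± 0.18 (edgeR adjusted p = 0.000298). All 3 SKG NKT1 libraries lay above those of WT NKT1 (0.57 ± 0.17, edgeR adjusted p = 0.0899, short of the fold minimum). The interaction of NKT17 against NKT1 was -0.85 ± 0.25 (edgeR adjusted p = 0.0697), and it did not hold without WT NKT1 replicate 1, WT NKT17 replicate 2 or 3, SKG NKT1 replicate 2 or SKG NKT17 replicate 3, at adjusted p from 0.105 to 0.167.

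Slc16a3 (chr11:120809794-120822182, plus strand), the exporter typical of highly glycolytic cells, was highest in NKT17. It stood at 18.7, 22.9 and 15.6 CPM in WT NKT17, at 5.31, 7.68 and 7.59 in WT NKT2 and at 4.22, 5.72 and 7.26 in WT NKT1. NKT17 was above NKT2 by 1.47 ± 0.31 (edgeR adjusted p = 0.000949) and above NKT1 by 1.74 ± 0.31 (edgeR adjusted p = 0.000122). In SKG NKT17 it stood at 28.2, 28.8 and 33.9 CPM, above all WT NKT17 libraries, with 0.67 ± 0.29 (edgeR adjusted p = 0.178), a difference that missed the threshold. Within SKG, NKT17 was above NKT2 by 2.40 ± 0.31 (edgeR adjusted p = 3.92e-06). Per kb of exon, Slc16a3 made up 33.5 ± 4.72% of the pair in WT NKT17 and 49.2 ± 3.73% in SKG NKT17, against 5.16 to 12.4% in the means of the other groups. Exons of Slc16a3 overlap those of Csnk1d on the opposite strand over 831 bases.

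**Figure D4:**
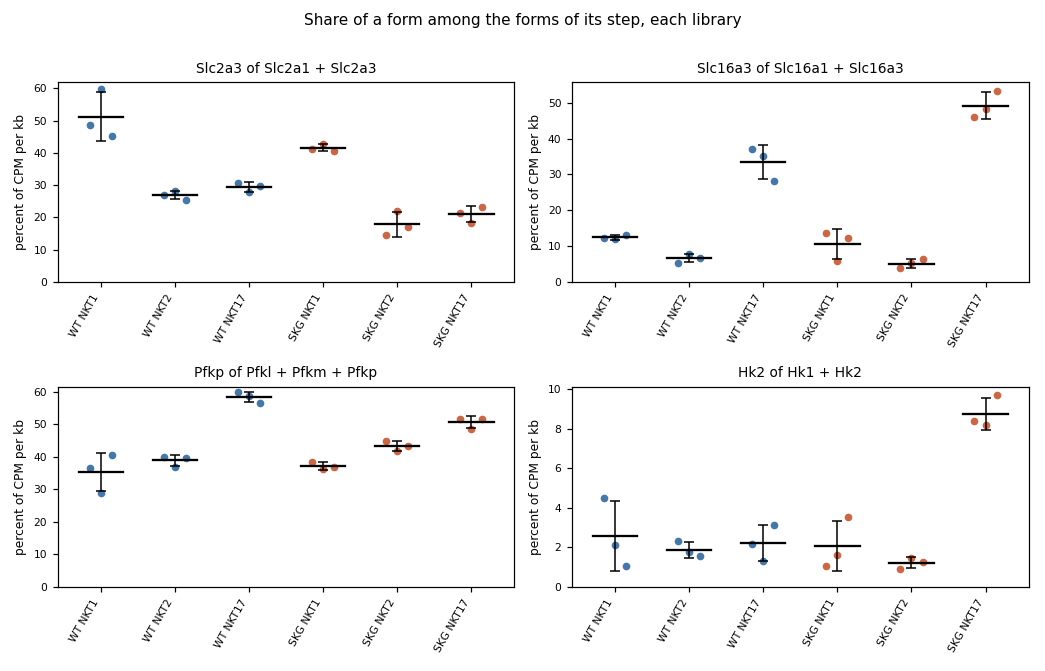
Share of Slc2a3, Slc16a3, Pfkp and Hk2 among the genes of their own step, in percent of CPM per kb of exon (vertical axes), for each library (points) with the mean and SD of 3 libraries in the 6 groups (horizontal axes). Slc2a3 takes its highest share in NKT1 and Slc16a3 and Pfkp theirs in NKT17 of both genotypes, and Hk2 reaches 8.74 ± 0.824% in SKG NKT17 alone among group means that elsewhere stay at 2.55% or less.

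At the entry of pyruvate into mitochondria, Pdha1, a subunit of pyruvate dehydrogenase, showed no called difference, with means from 168 to 193 CPM. The kinases that switch the enzyme off did differ. Pdk1 (chr2:71711281-71741915, plus strand), a known HIF-1 target, stood at 33.7, 37.9 and 48.8 CPM in WT NKT2, at 13.9 to 23.3 in WT NKT1 and at 9.75, 19.8 and 17.1 in WT NKT17. NKT2 was above NKT1 by 1.08 ± 0.27 (edgeR adjusted p = 0.00294) and above NKT17 by 1.36 ± 0.27 (edgeR adjusted p = 0.000520). In SKG the order was kept, at 46.3 ± 5.84, 28.6 ± 6.17 and 25.3 ± 6.60 CPM, but the call against NKT1 (edgeR adjusted p = 0.0619) was lost without SKG NKT1 replicate 1 or 2 or SKG NKT2 replicate 1 or 3 (up to 0.194), and that against NKT17 (edgeR adjusted p = 0.0173) without SKG NKT17 replicate 1 (0.118).

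Pdk3 (chrX:91009946-91077540, minus strand) was the main form, at 57.2 to 72.6% of the 3 kinase genes per kb in the group means. It stood at 97.8, 98.1 and 89.9 CPM in WT NKT2 and at 51.4, 50.4 and 59.6 in WT NKT1, -0.82 ± 0.16 for NKT1 (edgeR adjusted p = 0.000420). In SKG NKT2 it stood at 64.7, 59.7 and 46.8 CPM, below every WT NKT2 library, with -0.74 ± 0.16 (edgeR adjusted p = 0.00467). In SKG NKT1 it fell by 0.57 ± 0.17 (edgeR adjusted p = 0.0734), short of the fold minimum, and in NKT17 the SKG effect was -0.19 ± 0.16 (edgeR adjusted p = 0.558). Within SKG the call between NKT1 and NKT2 (-0.66 ± 0.17) was lost without SKG NKT1 replicate 3 (-0.54) or SKG NKT2 replicate 1 (-0.55). Pdk2 (chr11:94887572-94902668, minus strand) stood at 23.0, 17.5 and 23.7 CPM in SKG NKT1 and at 32.9, 40.5 and 37.9 in WT NKT1, with -0.79 ± 0.23 (edgeR adjusted p = 0.0655). That call was lost without any of the 6 libraries compared other than WT NKT1 replicate 1, at adjusted p from 0.116 to 0.275. In SKG, Pdk2 was 1.10 ± 0.23 higher in NKT17 than in NKT2 (edgeR adjusted p = 0.000915).

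**Figure D5:**
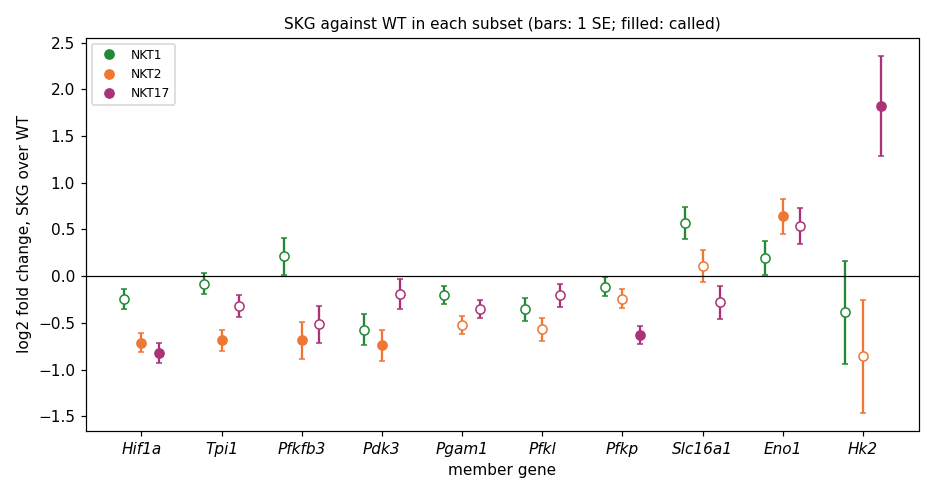
SKG effect (edgeR log2 fold change of SKG over WT, with 1 standard error as bars) for 10 members in NKT1, NKT2 and NKT17. Filled points were called: Hif1a in NKT2 (-0.71 ± 0.11) and NKT17 (-0.83 ± 0.11), Pdk3, Tpi1 and Pfkfb3 lower and Eno1 higher in NKT2, and Pfkp lower and Hk2 higher in NKT17.

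The pentose phosphate genes differed least. G6pdx, whose product makes the first NADPH of the pathway, Pgd, which makes the next, and transaldolase Taldo1 had no called difference in any comparison, with means of 80.3 to 112, 68.1 to 104 and 268 to 306 CPM. Pgd was nevertheless above NKT17 in NKT1 of both genotypes past the adjusted p (0.39 ± 0.12 in WT and 0.57 ± 0.12 in SKG), and G6pdx was above NKT2 in SKG NKT17 (0.45 ± 0.14), each below the fold minimum. Transketolase Tkt (chr14:31361545-31387908, plus strand), of the non-oxidative arm, stood at 348, 354 and 341 CPM in WT NKT2, at 215, 250 and 203 in WT NKT17 and at 211, 258 and 265 in WT NKT1. NKT17 was 0.64 ± 0.10 below NKT2 (edgeR adjusted p = 4.34e-05). In SKG NKT2 Tkt stood at 289, 271 and 279 CPM, and the interaction of NKT2 against NKT1 was -0.49 ± 0.14 (edgeR adjusted p = 0.0767), below the fold minimum. Rpia, ribose 5-phosphate isomerase, was near the floor at 1.13 to 3.32 CPM in the group means, and its call between WT NKT1 and NKT17 (edgeR adjusted p = 0.0914) was lost without any of the 6 libraries compared other than WT NKT1 replicate 2, at adjusted p from 0.137 to 0.238.

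Further genes of the pathway were read from 3 lists. Of 41 further glycolysis and pentose phosphate genes, 24 could be tested. In WT, NKT1 had 5 above and 4 below NKT2 and 5 above and 3 below NKT17, and NKT17 had 3 above and 3 below NKT2. The shares of all tested genes called above and below were, in that order, 13.7% and 13.7%, 11.2% and 13.5%, and 11% and 8.97%. Ldhd, the mitochondrial dehydrogenase of D-lactate, led them, at 258 ± 47.4 CPM in WT NKT17, 47.9 ± 6.57 in WT NKT2 and 8.55 ± 4.75 in WT NKT1, and it was higher in SKG NKT2 than in WT NKT2 (103 ± 4.48 CPM, 1.10 ± 0.21, edgeR adjusted p = 0.00157). Adpgk, the ADP-dependent glucokinase, stood at 205 ± 13.2 CPM in SKG NKT17 and 86.8 ± 4.20 in SKG NKT2. Of these 24, the SKG comparison called 0 in NKT1, 1 higher and 1 lower in NKT2, and 0 in NKT17. The interaction of NKT2 against NKT1 called 3 of the 24, against 3.87% of all genes. Among them was Pck2, a mitochondrial enzyme of gluconeogenesis, at -2.00 ± 0.53 (edgeR adjusted p = 0.0439).

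Of 16 genes of pyruvate entry and lactate transport, 13 could be tested. Embigin (Emb), an ancillary protein of monocarboxylate transporters, separated the subsets most, at 841 ± 23.96 CPM in WT NKT17, 149 ± 10.6 in WT NKT2 and 3.36 ± 2.00 in WT NKT1. Emb was higher in SKG NKT2 than in WT NKT2 (365 ± 33.4 CPM, 1.29 ± 0.19, edgeR adjusted p = 0.000143), and the interaction of NKT17 against NKT2 was -1.31 ± 0.26 (edgeR adjusted p = 0.0117). Slc16a6, a relative of the lactate transporters, stood at 65.6 ± 3.82 CPM in WT NKT17 and 16.1 ± 0.319 in WT NKT2. It was higher in SKG NKT2 (26.0 ± 0.933 CPM, 0.70 ± 0.16, edgeR adjusted p = 0.00519) and lower in SKG NKT17 (37.1 ± 3.22 CPM, -0.82 ± 0.15, edgeR adjusted p = 0.000646), and the interaction of these was -1.52 ± 0.21 (edgeR adjusted p = 0.000349). Brp44l, a subunit of the mitochondrial pyruvate carrier, was higher in SKG NKT17 (278 ± 16.0 against 166 ± 34.9 CPM, 0.74 ± 0.18, edgeR adjusted p = 0.0102). Of the 13, SKG NKT2 had 3 called higher and 0 lower (3.9% and 4.05% of all genes were). SKG NKT17 had 1 higher and 1 lower (3.83% and 4.54%), and SKG NKT1 had 0 (1.46% and 1.82%).

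Of 23 regulators and hypoxia targets, 21 could be tested. In WT, NKT1 had 4 called below and 3 above NKT2 (13.7% of all genes each way). It had 5 below and 4 above NKT17 (13.5% and 11.2%), and NKT17 had 4 above and 1 below NKT2 (11% and 8.97%). In SKG the NKT2 comparison with WT called 2 higher and 1 lower (3.9% and 4.05% of all genes). That of NKT17 called 2 higher and 0 lower (3.83% and 4.54%), and that of NKT1 0 (1.46% and 1.82%). Ero1l, an oxidase of the endoplasmic reticulum, stood at 541 ± 26.0 CPM in WT NKT17, 199 ± 7.78 in WT NKT2 and 113 ± 23.5 in WT NKT1, and Egln3, a prolyl hydroxylase that marks HIF for decay, at 42.7 ± 1.95 CPM in WT NKT17, 13.8 ± 4.86 in WT NKT2 and 1.16 ± 0.529 in WT NKT1. Within WT, both were highest in NKT17, while other genes known to respond to hypoxia were not: Pdk1 was highest in NKT2 and Bhlhe40 in NKT1. Epas1, the related factor HIF-2α, stood at 61.1 ± 18.5 CPM in SKG NKT17 and 1.31 ± 1.29 in SKG NKT2. Bhlhe40, a repressor induced by hypoxia and by receptor signals, stood at 115 ± 31.98 CPM in WT NKT1 and 2.99 ± 0.653 in WT NKT2. Myc stood at 371 ± 36.5 CPM in SKG NKT1, 195 ± 11.3 in SKG NKT2 and 81.4 ± 10.5 in SKG NKT17. Txnip, which curbs glucose uptake, was higher in SKG than in WT in NKT2 (382 ± 53.9 against 124 ± 10.1 CPM, 1.62 ± 0.23, edgeR adjusted p = 0.000264) and in NKT17 (356 ± 24.7 against 143 ± 38.9 CPM, 1.32 ± 0.23, edgeR adjusted p = 0.00150).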

How the data were processed

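The authors sorted the cells, made poly-A cDNA by a protocol adapted from Smart-seq2, fragmented it with Nextera XT and sequenced single-end 50-base reads. They aligned with TopHat 1.4.1 and deposited 1 table of raw read counts per gene made with htseq-count (union). The methods name the genome build mm9, while the submitters' processing notes list mm10, hg19, Bowtie 1.0.0 and HTSeq 0.7.1. Neither says whether strand was used. The build of the deposited table was thus not settled. Gene positions and exon lengths come from NCBIM37, the assembly of mm9. The length of a gene is that of all its annotated exons merged. For Pfkp this is 9395 bases, while its longest coding transcript has 4145. Levels and shares per kb depend on this choice, and other lengths were not tried.

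Columns were matched to samples by title, and 2 columns of the table with no sample were not used. Counts were filtered by expression within groups, scaled by TMM and fitted with edgeR 4.0.16 (R 4.3.3, limma 3.58.1) as 6 group means with robust quasi-likelihood, after tests on simulated data. The study used DESeq2 (1.42.0 here), which is an alternative. Genes past a Benjamini-Hochberg adjusted p of 0.1 and a fold change of 1.5 were called, in two-sided tests. The biological coefficient of variation was 21.1%. With 4391029 to 8895917 counts per library, a member at 1 CPM rests on only a few reads. Replicates differed beyond counting noise. The series gives 3 independent experiments but no animal per library, so p-values measure the spread between these libraries.

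The members and lists were chosen with earlier results of these data known. All 33 members may be named, and of further pathway genes the called ones, at most the 4 with the smallest adjusted p in each comparison. Alternatives were other scalings (RLE, upper quartile), DESeq2, other low-count filters and thresholds, fits of only the groups compared, a replicate block from a tag in the titles, and leaving out each library in turn. Promoter windows are from RefSeq. The value of 1 marker gene of another cell type is not reported here.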

Additional observations from a re-analysis of the deposited data

Results flagged for a closer look

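The SKG effect differed between subsets for 6 members by the edgeR interaction test (adjusted p under 0.1). At that threshold alone, NKT2 minus NKT1 had 247 of the 11118 tested genes higher and 212 lower. NKT17 minus NKT1 had 243 higher and 259 lower. For NKT2 minus NKT1 the difference in log2 fold change was -0.90 for Pfkfb3 (edgeR adjusted p = 0.0968), -0.61 for Tpi1 (0.0447) and -0.49 for Tkt (0.0767). For NKT17 minus NKT1 it was -0.85 for Slc16a1 (edgeR adjusted p = 0.0697), -0.58 for Hif1a (0.0394) and -0.52 for Pfkp (0.0571). Tkt, Hif1a and Pfkp were below the 1.5-fold minimum.

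For 2 members, all SKG libraries lay above WT in one subset and below WT in another. The share of all tested genes that met this rule was not counted. Hk2 had an SKG effect of 1.82 in NKT17 (edgeR adjusted p = 0.0351) and -0.86 in NKT2 (0.462), and the interaction of these, 2.68, had an edgeR adjusted p of 0.123. Eno3 had 0.58 in NKT1 (edgeR adjusted p = 0.257) and -0.46 in NKT2 (0.278), and the interaction, -1.04, had an edgeR adjusted p of 0.116. Groups of 3 libraries were not searched for outlying samples.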

How the results depend on the processing

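Of the 68 calls on members, 43 were kept under every alternative run and 25 were lost without at least 1 library. None changed direction. Without a fold minimum, the number of members called moved to 18 in WT NKT1 against NKT2, 18 in WT NKT1 against NKT17, 15 in WT NKT17 against NKT2, 16 in SKG NKT1 against NKT2, 15 in SKG NKT17 against NKT2, 3, 12 and 7 for SKG against WT in NKT1, NKT2 and NKT17, and 3 for the interaction of NKT17 minus NKT1. Over all 11118 genes this gave 2145 higher and 2172 lower in WT NKT1 against NKT2. It gave 1806 and 1901 in WT NKT1 against NKT17, and 1603 and 1514 in WT NKT17 against NKT2. In SKG it gave 1565 and 1305 for NKT1 against NKT2, and 1565 and 1412 for NKT17 against NKT2. For SKG against WT it gave 193 and 274 in NKT1, 595 and 675 in NKT2, and 591 and 807 in NKT17. At an adjusted p of 0.05, WT NKT1 against NKT17 gave 7, SKG against WT in NKT1 0, and the interactions of NKT2 and of NKT17 minus NKT1 gave 1 and 0. All genes then gave, in that order, 1140 higher and 1327 lower, 105 and 154, 168 and 132, and 147 and 131. Fits of only the libraries compared gave 7 for WT NKT1 against NKT17, 0 for SKG against WT in NKT1 and 1 (Hk2) for NKT17 minus NKT2. Over all genes they gave 1046 higher and 1133 lower of 10415 tested, 78 and 129 of 10079, and 150 and 157 of 10890. Upper-quartile scaling gave 2 for SKG against WT in NKT1 and 2 for NKT17 minus NKT1, RLE scaling gave 2 for the latter, and DESeq2 gave 2 for it and 1 for NKT17 minus NKT2. Over all genes, upper-quartile scaling gave 171 higher and 178 lower for the first and 216 and 262 for NKT17 minus NKT1. For NKT17 minus NKT1, RLE scaling gave 217 and 264 and DESeq2 287 and 349. For NKT17 minus NKT2, DESeq2 gave 171 and 172. Without a low-count filter NKT2 minus NKT1 gave 1, and 216 higher and 184 lower over 15582 genes. Upper-quartile scaling moved the median of all genes in WT NKT1 against NKT2 by -0.10.

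With 1 library left out, the counts ranged from 11 to 13, 6 to 11 and 7 to 8 for WT NKT1 against NKT2, NKT1 against NKT17 and NKT17 against NKT2, and from 3 to 5, 13 to 14 and 6 to 9 for the same in SKG. For SKG against WT they ranged from 0 to 2 in NKT1, 3 to 6 in NKT2 and 2 to 5 in NKT17, and for the interactions from 0 to 2, 0 to 4 and 0 to 1. The cause of these moves was not tested.

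The replicate block used a tag in the titles, shared by libraries of different groups, whose meaning the labels do not give. Of 36 same-tagged pairs of libraries, 12 correlated above 0.1 (12 of 18 within a genotype, 0 of 18 across), as did 15 of 99 pairs with other tags. The median correlation was 0.170 for same-tagged pairs within a genotype, 0.004 across genotypes and -0.036 for other tags. The samples were not taken as paired. However, 16 of 18 libraries correlated best with their own tag, a hint from the data only. The main fit left the tag out, so that any pairing of the subsets within a genotype is not taken into account there. Some tags occur in WT only or in SKG only, so tag and genotype are partly tied. With the replicate block, NKT17 minus NKT1 gave 2 members, and over all comparisons 4 calls were lost (Eno1 and Pfkfb3 for SKG against WT in NKT2, Pfkm and Rpia for WT NKT1 against NKT17) and 4 gained.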

Other observations

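Depth limits the rare members. Aldoc, Rpia, Hk2, Pfkfb4 and Pfkm stood at few CPM, and differences in them are detectable only when large. Most of the transcript of Pgk1, Pgam1, Gapdh and Eno1 also occurs elsewhere in the genome, and how such reads were handled is not given in the sources used here. RNA levels say nothing of enzyme activity or flux, which were not measured in the files used here.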
